A study of Drosophila melanogaster with 36 samples.

Results

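The nuclear genes of respiratory complex I were followed in heads and muscles of ageing flies and in whole flies of 3 Gcn5 genotypes. They were taken as every gene whose FlyBase symbol starts with ND-, which gave 40 genes of the 17494 in the head and muscle tables and of the 17612 in the whole-fly tables. Of these, 34 are subunit genes and 6 are paralogs by name, that is, the symbol of a subunit gene followed by L, L1 or L2 (ND-20L, ND-24L, ND-49L, ND-51L1, ND-51L2 and ND-B14.5AL). The 40 genes lie on chromosome arms 2L (9), 2R (8), 3L (9) and 3R (4), on chromosome 4 (1) and on the X chromosome (9). NP15.6, the fly homolog of the human subunit NDUFB11, carries another kind of symbol and is not among them.

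Complex I, the NADH:ubiquinone oxidoreductase, is the entry point of the mitochondrial respiratory chain. It takes electrons from NADH, passes them along a row of iron-sulfur clusters to ubiquinone and uses the energy released to pump protons across the inner membrane. Its matrix arm holds an N module, where NADH is oxidised, and a Q module, where ubiquinone is reduced. Its membrane arm holds a proximal and a distal P module, whose proton-pumping core proteins are encoded by the mitochondrial genome. Core subunits are shared with the bacterial enzyme and carry the cofactors, and accessory subunits surround them and are needed for assembly or stability. Flight muscle is among the tissues of an insect that are richest in mitochondria.

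Poly-A RNA of Drosophila melanogaster was read in 36 libraries. Heads and muscles of the wild-type (WT) strain 5905 were taken at ages of 3, 15, 30 and 45 d, in 3 libraries per age and tissue. Whole flies, all 3 d old, were WT of the same strain, the loss-of-function mutant gcn5c450/c450, or gcn5c450, tub-GAL4/c450, UAS-HA-Gcn5, in 4 libraries per genotype. The last genotype, called the transgene group here, carries both mutant alleles of Gcn5, a histone acetyltransferase gene, and a tagged Gcn5 driven in all tissues by the tubulin promoter. The labels give neither the sex of the flies nor how many were pooled, and they do not say that replicates came from separate animals, so p-values measure only the spread between libraries.

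Counts in genes came to 3.18 to 4.36 M in a head library, 3.00 to 3.68 M in a muscle library and 1.62 to 2.82 M in a whole-fly library. Replicate 3 of muscle at 3 d stood apart: its Spearman correlation across genes was 0.908 with both other replicates, which had 0.978 between them. In that library the 11 marker genes of muscle summed to 31627 CPM (counts scaled to a common library size) against 46955 and 57165 CPM in the others. Among them the myosin gene Mhc had 2090 CPM, against 9596 and 15033 CPM. The complex I subunit genes had a median of 2.29 times the mean of replicates 1 and 2 there, from 0.837 times for ND-75 to 3.48 times for ND-B8, so the main muscle results are given with and without it. Replicate 3 of muscle at 45 d had 36.6% of its tallied reads aligned to more than a single place. All 11 muscle markers were read in the muscle libraries, and 9 digestive enzyme genes of the gut summed to 8063 to 19915 CPM there at 3 d, against 32.9 to 46.6 CPM in heads. Genes of the mitochondrial genome took 9.97 to 10.96% of head counts at 3 d and 6.46 to 7.22% at 45 d. In muscles they took 24.6 to 33.9% at 3 d and 5.46 to 7.82% at 45 d. Over all whole-fly libraries 8 female germline and eggshell genes summed to 11.9 to 20.6 CPM. There 15 testis genes summed to 2592 to 3935 CPM and 6 accessory gland genes to 2255 to 5667 CPM. By these markers the whole flies were male or nearly all male. In whole flies Gcn5 stood at 35.9 ± 7.10 CPM in WT (SD, n = 4), 36.8 ± 0.56 CPM in the mutant and 2968 ± 166 CPM in the transgene group, so its transcript level does not show the mutation.

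The subunit genes fall into 7 of the N module, 8 of the Q module, 7 of the proximal and 10 of the distal P module, the acyl carrier protein gene ND-ACP, and ND-MLRQ. ND-MLRQ is the homolog of human NDUFA4, a protein now placed with complex IV in mammals. After a filter on low counts 32 of the 40 genes were tested in heads and 33 in muscles, and 39 were tested in whole flies. All those tested in heads and muscles were subunit genes. ND-MNLL, the homolog of NDUFB1, had 0 counts in all 36 libraries, and all 720 of its exonic bases are shared with CG45089 on the same strand. Of the 40 genes 17 share some exonic bases with another gene, but only ND-MNLL shares over 50% of them. ND-MWFE, the homolog of NDUFA1, shares 295 of 844 bases (35.0%) with Nrk and TppII, and its level is uncertain.

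Per kilobase of exon, the levels at 3 d spread widely among the subunit genes. In heads ND-MLRQ led with a mean of 396 CPM per kb, followed by ND-51 (272), ND-SGDH (235) and, further down, ND-39 (193), and the lowest besides ND-B8 were ND-AGGG (35.6) and ND-B18 (53.2). In muscles the order began with ND-MLRQ (3083 CPM per kb), ND-51 (1395), ND-SGDH (1311), ND-23 (1142) and ND-24 (1022) and ended with ND-B18 (284) and ND-AGGG (129). These muscle means include replicate 3, where ND-24 had 2.76 times the mean of replicates 1 and 2 and ND-75 0.837 times. The order in muscles thus rests in part on that library, and the order without it is not given here. In WT whole flies it was ND-MLRQ (507 CPM per kb), ND-51 (289), ND-39 (263) and ND-75 (208). ND-51, the homolog of NDUFV1, is the flavoprotein that binds NADH, and ND-MLRQ and ND-51 held the first places in all 3 materials.

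In heads nearly all complex I genes were lower in older flies, by less than 2-fold. At 45 d against 3 d, 31 of 32 tested members fell and all 32 values were below 0, with a median log2 change of -0.53 against 0.01 over all genes tested, where 18.2% of genes fell. The members together held 0.425 to 0.463% of the counts of a head library at 3 d and 0.339 to 0.366% at 45 d, and these ranges do not overlap. In bulk tissue, fewer cells of a type and less RNA per cell cannot be told apart. Beside these falls, 8 of 10 tested muscle markers and 9 of 10 neuron markers fell in heads, and their part in the result was not tested. The muscle markers summed to 4132 to 5883 CPM at 3 d and 2761 to 2862 CPM at 45 d, and the neuron markers to 5913 to 7372 and 3826 to 4094 CPM. Of the 10 photoreceptor markers 5 fell and 2 rose, with sums of 51342 to 59602 CPM at 3 d and 32931 to 57502 CPM at 45 d. The 5 glia markers summed to 3360 to 3988 CPM at 3 d and 2683 to 2979 CPM at 45 d. The sums of 5 fat body genes were higher at 45 d, at 7326 to 7863 and 8587 to 9679 CPM. The part of these lists was not tested either.

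The largest falls in heads were in accessory subunits. ND-19, the homolog of the proximal P subunit NDUFA8, stood at 86.5, 83.9 and 72.1 CPM in the 3 libraries of 3 d, at 55.0, 50.8 and 62.1 CPM at 15 d, at 56.0, 53.4 and 56.6 CPM at 30 d and at 42.1, 46.3 and 53.9 CPM at 45 d. All libraries of 3 d lie above all older ones, and the change from 3 to 45 d was -0.77 on the log2 scale (SE 0.10, adjusted p = 2.59e-05, edgeR). ND-ACP, the acyl carrier protein, stood at 166, 150 and 153 CPM at 3 d, 106, 101 and 105 CPM at 15 d, 101, 93.4 and 108 CPM at 30 d and 86.2, 82.1 and 111 CPM at 45 d. Again the 3 d libraries are the highest, while the 45 d libraries overlap with those of 15 and 30 d (log2 change from 3 to 45 d -0.75, SE 0.10, adjusted p = 2.24e-05, edgeR). ND-42, the homolog of NDUFA10, fell from 260, 233 and 209 CPM to 134, 148 and 139 CPM (log2 -0.74, SE 0.08, adjusted p = 4.69e-06, edgeR). ND-B17.2, the homolog of NDUFA12, fell from 109, 97.6 and 99.8 CPM to 51.8, 60.7 and 73.4 CPM (log2 -0.72, SE 0.10, adjusted p = 5.09e-05, edgeR). For both genes the groups do not overlap.

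ND-51 was the exception. It stood at 445, 440 and 415 CPM at 3 d, 400, 388 and 402 CPM at 15 d, 452, 414 and 415 CPM at 30 d and 395, 411 and 451 CPM at 45 d. The 45 d libraries span the range of the 3 d libraries, and the log2 change was -0.05 (SE 0.07, 95% interval -0.21 to 0.12, adjusted p = 0.642, edgeR). The members with the highest levels in the P modules fell. ND-B14.7 of the proximal P module fell from 128, 142 and 125 to 80.7, 82.3 and 94.8 CPM (log2 -0.62, SE 0.09). ND-SGDH of the distal P module fell from 218, 204 and 205 to 135, 156 and 181 CPM (log2 -0.41, SE 0.10, adjusted p = 0.00392, edgeR). In both genes all libraries of 45 d lie under all of 3 d. By module, 5 of 6 tested genes of the N module fell (median log2 -0.56) and 8 of 8 of the Q module (-0.40). So did 7 of 7 of the proximal P module (-0.62) and 9 of 9 of the distal P module (-0.53). Of all genes tested in heads 18.2% fell.

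Most of the head change was in place at 15 d. At that age 26 of 32 members were past the threshold and lower than at 3 d, all 32 values were below 0, and the median log2 change was -0.34 against 0.00 over all genes, of which 7.85% fell. The members not past it were ND-51, ND-23, ND-PDSW, ND-B16.6, ND-B22 and ND-AGGG, all with values below 0. ND-ACP had the largest fall (log2 -0.58, SE 0.10, adjusted p = 0.00112, edgeR), followed by ND-42 (-0.54) and ND-B18 (-0.53, SE 0.14, adjusted p = 0.0184, edgeR). ND-B18, the homolog of NDUFB7, stood at 74.3, 58.9 and 47.0 CPM at 3 d and at 40.0, 37.6 and 46.4 CPM at 15 d, so that its groups all but touch. The count depends on single libraries: it was 8 when replicate 1 of 3 d was left out and 17 when replicate 2 was. It was 14, 14 and 17 when replicates 1, 2 and 3 of 15 d were left out in turn, and 16 under library-size scaling alone. The shares of all genes under these settings are not given here.

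After 15 d the fall in heads was small. From 15 to 45 d the median log2 change of the members was -0.18, 30 of 32 values were below 0, and 1 gene passed the threshold, where 4.01% of all genes fell. That gene was ND-ASHI, the homolog of the distal P subunit NDUFB8, at 77.1, 76.9 and 83.4 CPM at 15 d, 80.0, 76.8 and 76.2 CPM at 30 d and 64.0, 63.7 and 65.9 CPM at 45 d (log2 -0.30, SE 0.07, adjusted p = 0.0143, edgeR). Its 45 d libraries lie close together and below all others. The count was 0 without replicate 3 of 15 d or replicate 2 of 45 d, while leaving out replicate 3 of 45 d gave 7. In the steps from 15 to 30 d and from 30 to 45 d edgeR called 0 members, with 1 and 2 at an unadjusted p under 0.05, where 0.852% and 0.111% of all genes fell.

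**Figure D1:**
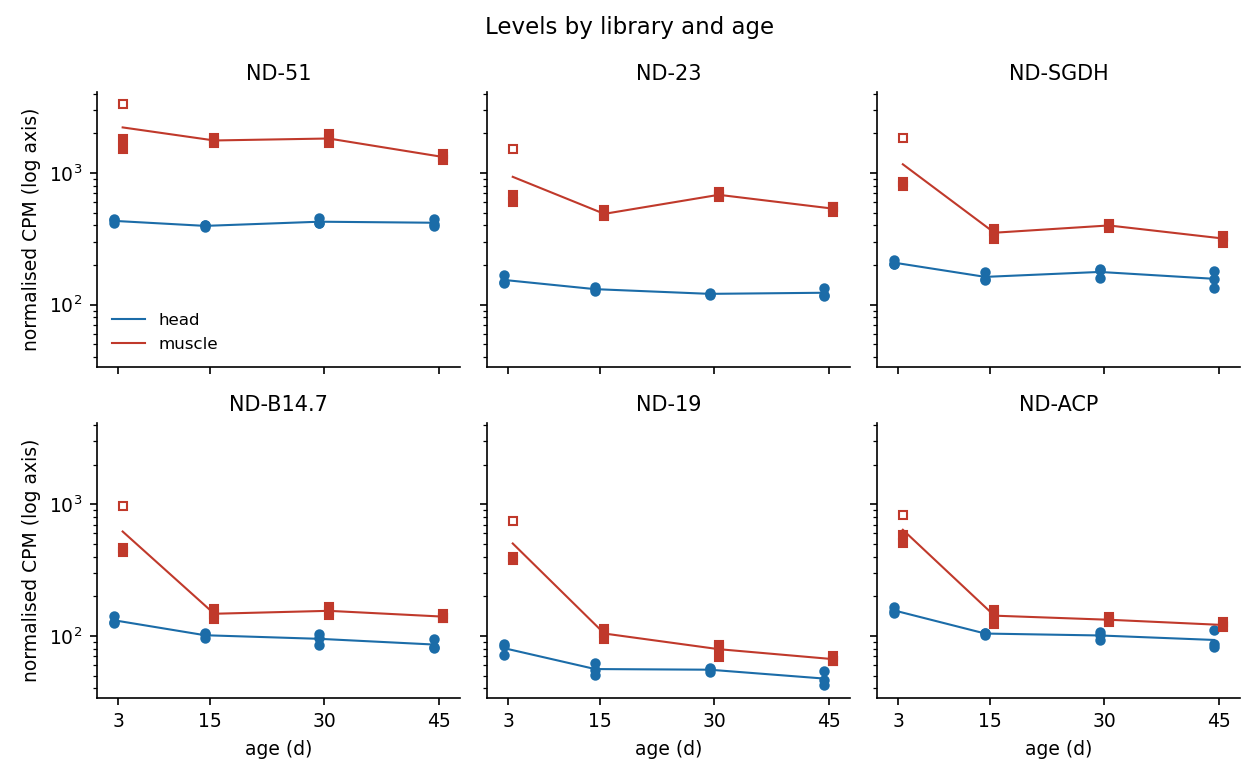
Scaled CPM (log axis) of 6 complex I genes in each head and muscle library at 3, 15, 30 and 45 d; each point is a library, the line joins the group means, and the open square is replicate 3 of muscle at 3 d. In heads ND-51 runs level, from 415 to 445 CPM at 3 d and from 395 to 451 CPM at 45 d, while in muscles ND-19, ND-B14.7 and ND-ACP drop between 3 and 15 d.

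In muscles the complex I genes fell much further by their median log2 change, and most of that median fall lay between 3 and 15 d. ND-B8 and ND-MLRQ, given below, fell on after 15 d. At 45 d 32 of 33 tested members were lower than at 3 d and all 33 values were below 0, with a median log2 change of -2.01 where 11.1% of all genes fell. Without replicate 3 of 3 d all 33 fell, with a median of -1.43 and 22.5% of all genes. At 15 d 30 of 33 fell (median log2 -1.80, against 0.01 over all genes, of which 6.05% fell), and 32 without that library (median -1.28, 15.2% of all genes). With only the 3 and 15 d libraries in the fit 12 members passed, and the share of all genes in that fit is not given here. The summed level of the subunit genes was 19107, 19234 and 37882 CPM at 3 d, the last in replicate 3, and 7988 to 8657 CPM at 45 d. As an unscaled share of the counts of a muscle library, the members held 1.33, 1.31 and 2.23% at 3 d. They held 1.14 to 1.28% at 30 d, above all 15 d libraries, and 0.972 to 1.04% at 45 d. By that share replicates 1 and 2 of 3 d lay much closer to the later libraries than by scaled CPM. Under library-size scaling alone the median log2 change of all genes moved to 0.74 at 15 d and 0.89 at 45 d. The members then had medians of -1.02 and -1.07, which lie 1.76 and 1.96 below those of all genes, and 25 and 27 of 33 fell.

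Of the 11 muscle markers 9 fell between 3 and 45 d (median log2 -2.12), from a sum of 31627 to 57165 CPM to one of 9819 to 10521 CPM, and 10 of 11 without replicate 3 of 3 d (median -2.46). The gut enzymes had overlapping sums, of 8063 to 19915 CPM at 3 d and 8603 to 9136 CPM at 45 d, and the sum of 5 fat body genes was higher at 45 d, at 2383 to 6246 and 7667 to 9113 CPM. With replicate 3 of 3 d left out, 10 of 10 neuron markers fell (median log2 -0.77), 4 of 5 glia markers (-0.63) and 4 of 4 photoreceptor markers (-6.48). In that fit 2 of 3 fat body genes rose. Of 7 gut enzymes 3 rose and 1 fell, where 22.5% of all genes fell. The part of these markers in the fall of the complex I genes was not tested.

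ND-B8, the homolog of the N module subunit NDUFA2, had the largest fall, with 156, 127 and 492 CPM in the muscle libraries of 3 d, 36.6, 37.8 and 52.0 CPM at 15 d, 41.9, 45.9 and 34.2 CPM at 30 d and 14.9, 17.23 and 18.7 CPM at 45 d. Libraries of 3 d lie far above all others, and those of 45 d lie below all others. The log2 change from 3 to 45 d was -3.93 (SE 0.46, adjusted p = 6.89e-05, edgeR), and -3.07 without replicate 3 of 3 d. ND-MLRQ stood at 1189, 1133 and 2656 CPM at 3 d, 353, 440 and 487 CPM at 15 d, 305, 313 and 291 CPM at 30 d and 197, 203 and 230 CPM at 45 d (log2 from 3 to 45 d -2.98, SE 0.30, adjusted p = 2.09e-05, edgeR, and -2.47 without that library). ND-19 stood at 374, 395 and 740 CPM at 3 d, 94.6, 112 and 106 CPM at 15 d, 85.3, 82.7 and 69.7 CPM at 30 d and 64.1, 70.8 and 64.9 CPM at 45 d (log2 -2.92, SE 0.25, adjusted p = 6.61e-06, edgeR, and -2.53 without it). In both genes no later library reaches those of 3 d, and each age lies below the age before it in group mean.

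ND-B15, the homolog of NDUFB4, and ND-15, the homolog of NDUFS5, belong to the membrane arm. ND-B15 fell from 231, 245 and 551 CPM at 3 d through 66.9, 75.8 and 85.2 CPM at 15 d to 51.5, 53.3 and 56.5 CPM at 45 d (log2 -2.67, SE 0.30, adjusted p = 4.45e-05, edgeR, and -2.15 without replicate 3 of 3 d). ND-15 fell from 282, 328 and 702 CPM at 3 d through 81.9, 104 and 103 CPM at 15 d to 75.9, 73.0 and 82.7 CPM at 45 d (log2 -2.50, and -1.98 without that library). In neither gene do the libraries of 3 d overlap with any later ones. ND-B14.7, the homolog of NDUFA11, fell from 432, 466 and 962 to 137, 137 and 146 CPM (log2 -2.15, SE 0.27), and ND-SGDH, the homolog of NDUFB5, from 849, 797 and 1848 to 294, 331 and 329 CPM (log2 -1.87, SE 0.27). Without that library these were -1.68 and -1.37, and both passed the threshold either way.

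The members with the smallest changes were ND-51 and ND-23, both of the matrix arm. ND-51 stood at 1823, 1520 and 3313 CPM at 3 d, 1704, 1745 and 1849 CPM at 15 d, 1988, 1817 and 1677 CPM at 30 d and 1249, 1387 and 1332 CPM at 45 d. Replicate 3 of 3 d lies alone above the rest, replicate 1 lies within the range of 15 and 30 d and replicate 2 just below it, and the 45 d libraries are the lowest. Its change at 15 d was -0.33 on the log2 scale (SE 0.24, adjusted p = 0.467, edgeR), and 0.08 without replicate 3 (adjusted p = 0.582). At 45 d it was -0.75 (SE 0.24, adjusted p = 0.0452, edgeR), and -0.34 without replicate 3 (adjusted p = 0.00617), but under library-size scaling alone the value turned to 0.18. ND-23, the homolog of NDUFS8, which carries iron-sulfur clusters, stood at 686, 603 and 1517 CPM at 3 d, 468, 481 and 520 CPM at 15 d, 718, 676 and 654 CPM at 30 d and 501, 551 and 556 CPM at 45 d. The 30 d libraries are back within or above the level of replicates 1 and 2 of 3 d. Its log2 change at 45 d was -0.80 (SE 0.28, adjusted p = 0.0628, edgeR), short of the threshold, and -0.27 without replicate 3 (adjusted p = 0.0161).

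**Figure D2:**
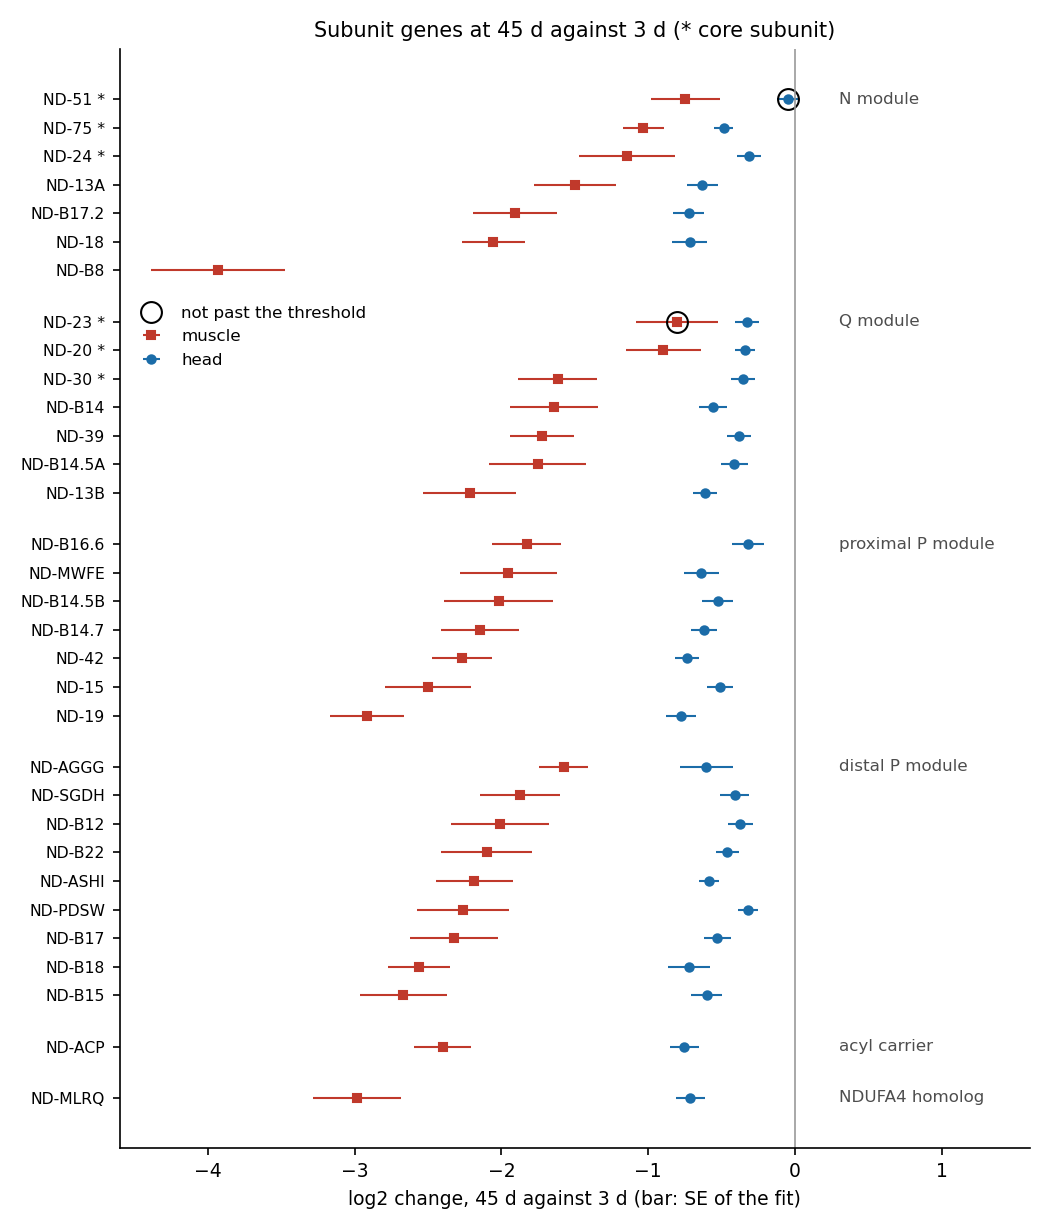
Log2 change from 3 to 45 d of 32 subunit genes, ordered by module, in heads (blue circles) and muscles (red squares), with bars of 1 SE; an asterisk marks a core subunit and a black ring a change that did not pass the threshold. Both ringed points belong to the matrix arm, ND-51 in heads (-0.05) and ND-23 in muscles (-0.80), and with all libraries every muscle value lies below the head value of the same gene. The tissue difference of ND-23 was 0.10 (adjusted p = 0.634, edgeR) without replicate 3 of muscle at 3 d.

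Core and accessory subunits were set side by side after these values had been seen, so what follows is a description without a test. The 7 core genes encoded in the nucleus include ND-75, ND-51 and ND-24 of the N module and ND-30, ND-20 and ND-23 of the Q module. As a percentage of the mean of replicates 1 and 2 of muscle at 3 d, the 7 core genes had a median of 72.9% at 15 d, 90.9% at 30 d and 71.8% at 45 d. The other 26 tested genes had medians of 39.0%, 37.1% and 31.9%. At 45 d the core genes ranged from 46.0 to 83.2% and the others from 11.96 to 50.8%, so that the ranges overlap only between 46.0 and 50.8%. The core gene with the lowest values was ND-30, the homolog of NDUFS3, at 700, 701 and 1565 CPM at 3 d and 321, 328 and 317 CPM at 45 d. ND-75, the homolog of NDUFS1, was the only member that replicate 3 of 3 d did not hold at the highest level of its group, at 1797, 1874 and 1537 CPM, and it fell to 794, 849 and 904 CPM (log2 -1.03, SE 0.14).

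The same order of classes stood in heads, where the median log2 change from 3 to 45 d was -0.34 over the 7 core genes, of which 6 fell, and -0.60 over the 25 others, all of which fell. In muscles these medians were -1.03, with 6 of 7 fallen, and -2.12, with 26 of 26 fallen. Of all genes tested 11.1% fell in muscles and 18.2% in heads. By module the muscle medians were -1.50 for the N module (7 of 7 fell), -1.63 for the Q module (7 of 8), -2.15 for the proximal P module (7 of 7) and -2.18 for the distal P module (9 of 9). All tested genes of these groups fell when replicate 3 of 3 d was left out, where 22.5% of all genes fell. The medians were then -0.48 for the core genes and -1.65 for the others, and -1.11, -1.07, -1.68 and -1.67 for the N, Q, proximal P and distal P modules, so that the order within each arm turned. Change and exon length went together: the Spearman correlation across the 33 genes was 0.45 in muscle from 3 to 45 d, against 0.20 over 8814 genes. From 3 to 15 d it was 0.50 against 0.42, and in heads from 3 to 45 d 0.30 over 32 members against -0.17 over 8983 genes. Genes are not independent replicates, and the part of length in the difference between the classes was not tested.

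**Figure D3:**
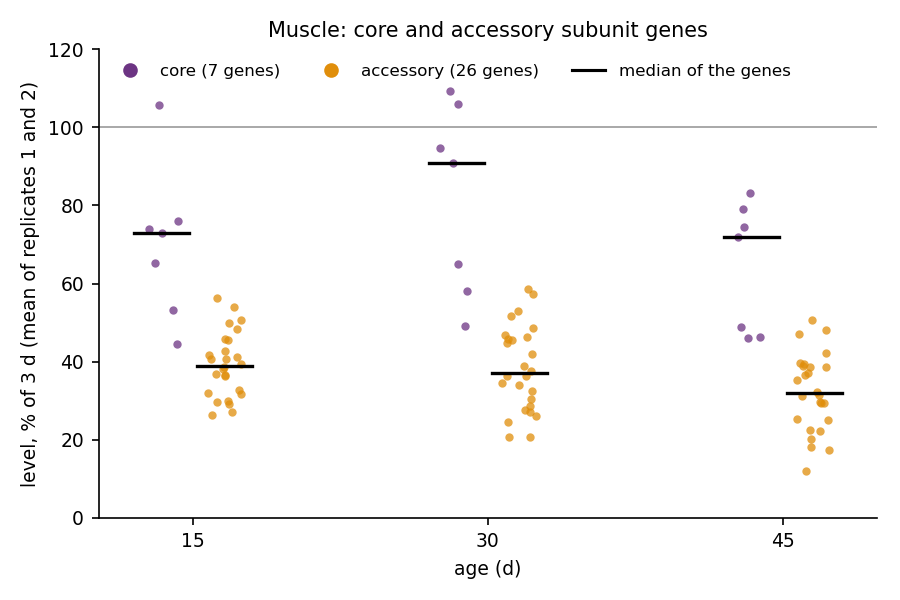
Mean level of each tested subunit gene in muscle at 15, 30 and 45 d as a percentage of the mean of replicates 1 and 2 at 3 d, with core genes and all other genes apart; each point is a gene and the black bar is the median. The medians of the core genes lie at 72.9, 90.9 and 71.8% and those of the others at 39.0, 37.1 and 31.9%.

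From 15 to 45 d edgeR called 0 members in muscle, with 6 at an unadjusted p under 0.05 and 2 called by DESeq2. The median log2 change was -0.24, and 0.767% of all genes fell. With only the 15 and 45 d libraries in the fit 12 members were lower, and the share of all genes in that fit is not given here. With replicate 3 of both ages 3 d and 45 d left out, 15 members were lower, where 8.6% of all genes were. From 15 to 30 d and from 30 to 45 d, 0 members passed by edgeR, with 1 and 4 at an unadjusted p under 0.05, where 0.0677% and 0% of all genes fell. All 33 values of the last step were below 0.

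Complex I transcripts stood higher in muscle than in head at both ages compared. A joint fit of both tissues was used, whose scaling gives slightly other CPM than above. In it all 33 tested members were higher in muscle at 3 d, with a median log2 difference of 2.83, where 29% of all genes were higher. Among the 33, ND-B8 had 2 counts over the 12 head libraries and passed the filter through its muscle counts alone. Its direction between the tissues was thus fixed beforehand. Without replicate 3 of muscle at 3 d the median was 2.36, again with 33 higher (26.5% of all genes). Under library-size scaling alone the median at 3 d was 1.90 with 33 higher, and that of all genes was -0.89. At 45 d 32 of 33 were higher with a median of 1.43 (24.3% of all genes), and ND-15 had a difference of 0.51 (adjusted p = 0.0632, edgeR). Apart from ND-B8, the widest difference at 3 d was in ND-24, the homolog of NDUFV2, with 103, 97.1 and 105 CPM in heads and 849, 721 and 2177 CPM in muscles (log2 3.62, SE 0.27, adjusted p = 1.55e-10, edgeR). The difference of ND-24 was 2.95 without replicate 3 of muscle. At 45 d ND-24 stood at 77.6, 71.5 and 85.8 CPM in heads and 515, 596 and 574 CPM in muscles (log2 2.84). The tissues do not overlap at either age.

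The order of the tissue differences was another at 45 d. ND-MLRQ had 225, 177 and 174 CPM in heads and 1368, 1293 and 3055 CPM in muscles at 3 d (log2 3.31), but 106, 115 and 114 CPM and 224, 232 and 263 CPM at 45 d (log2 1.10). ND-B14.5B, the homolog of NDUFC2, stood at 84.1, 78.1 and 66.1 CPM in heads and 408, 402 and 1266 CPM in muscles at 3 d (log2 3.18). ND-MLRQ had 2.80 and ND-B14.5B 2.42 when replicate 3 of muscle was left out, and ND-18 (2.67) and ND-B17.2 (2.58) were then among the genes above ND-B14.5B. Matrix arm genes led at 45 d: ND-23 stood at 101, 103 and 113 CPM in heads and 572, 629 and 636 CPM in muscles (log2 2.53), and ND-20, the homolog of NDUFS7, at 110, 116 and 113 CPM and 596, 660 and 640 CPM (log2 2.48). ND-51 followed, with 343, 357 and 381 CPM in heads and 1425, 1584 and 1524 CPM in muscles (log2 2.07).

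The change with age itself differed between the tissues. From 3 to 45 d the log2 change of 24 of 33 members was lower in muscle than in head past the threshold, with a median difference of -1.43, where 4.77% of all genes were lower. Without replicate 3 of muscle at 3 d this held for 27 members with a median of -0.95 (9.24% of all genes). Under library-size scaling alone it held for 18 members, with a median of -0.67 where that of all genes was 0.73. ND-MLRQ had the largest difference (log2 -2.21, SE 0.32, adjusted p = 6.98e-05, edgeR), followed by ND-19 (-2.09, SE 0.27, adjusted p = 1.93e-05), ND-B15 (-2.01, adjusted p = 0.000212) and ND-15 (-1.93, adjusted p = 0.000237). Without that library the order was ND-19 (-1.71), ND-MLRQ (-1.71), ND-B18 (-1.55), ND-B15 (-1.51) and ND-15 (-1.43). ND-19 went from 77.7, 75.4 and 65.3 CPM to 36.5, 40.2 and 45.4 CPM in heads and from 430, 451 and 851 CPM to 73.1, 80.9 and 74.2 CPM in muscles. ND-15 went from 105, 87.1 and 86.3 CPM to 59.2, 59.2 and 67.8 CPM in heads and from 325, 374 and 807 CPM to 86.6, 83.4 and 94.6 CPM in muscles. The difference passed for 1 of the 7 core genes and 23 of the other 26. Those it did not pass for included ND-75, ND-23, ND-20, ND-24, ND-51, ND-13A, ND-B14 and ND-B8. When replicate 3 of muscle at 3 d was left out the difference passed for 3 core genes, ND-30 and ND-75 among them. Of the other 26 it passed for 24, ND-B14 included. ND-B8 had an SE of 2.58 in that fit, as it has next to no head counts, so its difference could not be judged. With only the 3 and 45 d libraries in the fit 11 members passed, and the share of all genes in that fit is not given here. From 15 to 45 d edgeR called 0 members, with 1 at an unadjusted p under 0.05 and 0 called by DESeq2, where 0.136% of all genes were lower, and 16 of 33 values were below 0.

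ND-B8 (chromosome arm 2L, 4454626 to 4455207 of FlyBase r6.36) was nearly absent from the head libraries. It had 1 count in replicate 1 of 3 d, 1 count in replicate 2 of 15 d and 0 counts in the other 10. In muscles it had 356, 293 and 996 counts at 3 d, 127, 133 and 207 at 15 d, 165, 177 and 135 at 30 d and 64, 63 and 67 at 45 d. No library of a tissue comes near those of the other. Against a floor of 3 counts over the group of heads, the muscle level was at least 190-fold higher at 30 d and at least 86.4-fold higher at 45 d. With a head count of 1, the ratio was 3126 at 3 d (95% interval 560 to 123548) and 632 at 15 d (113 to 25028), intervals that cover counting error only. Of 2330 genes with at least as many counts in muscle, 7 others had as few in heads: CG14125, CG5506, CG6839, CG11672, CG31077, Mco4 and CG34026. ND-B8 shares 71 of its 460 exonic bases with Gs1l on the other strand. Beside it, the gut enzyme genes summed to at most 93.7 CPM in a head library and at least 7936 CPM in a muscle library, and their part in the level of ND-B8 was not tested. In whole flies it was read in every library, with 24 to 81 counts.

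The 6 paralogs were nearly absent from heads and muscles too, but not from whole flies. Over 12 libraries each of head, muscle and whole fly, ND-20L had 0, 5 and 473 counts, ND-24L 1, 1 and 801, and ND-49L 19, 17 and 1595. ND-51L1 had 9, 9 and 1138 counts, ND-51L2 6, 1 and 794, and ND-B14.5AL 7, 3 and 950. Heads and muscles were read and counted in another way than whole flies, so no ratio is given. The 15 testis markers ran the same way, with sums of 4.67 to 40.6 CPM in heads, 5.26 to 42.1 CPM in muscles and 2592 to 3466 CPM in WT whole flies, and their part in the levels of the paralogs was not tested.

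**Figure D4:**
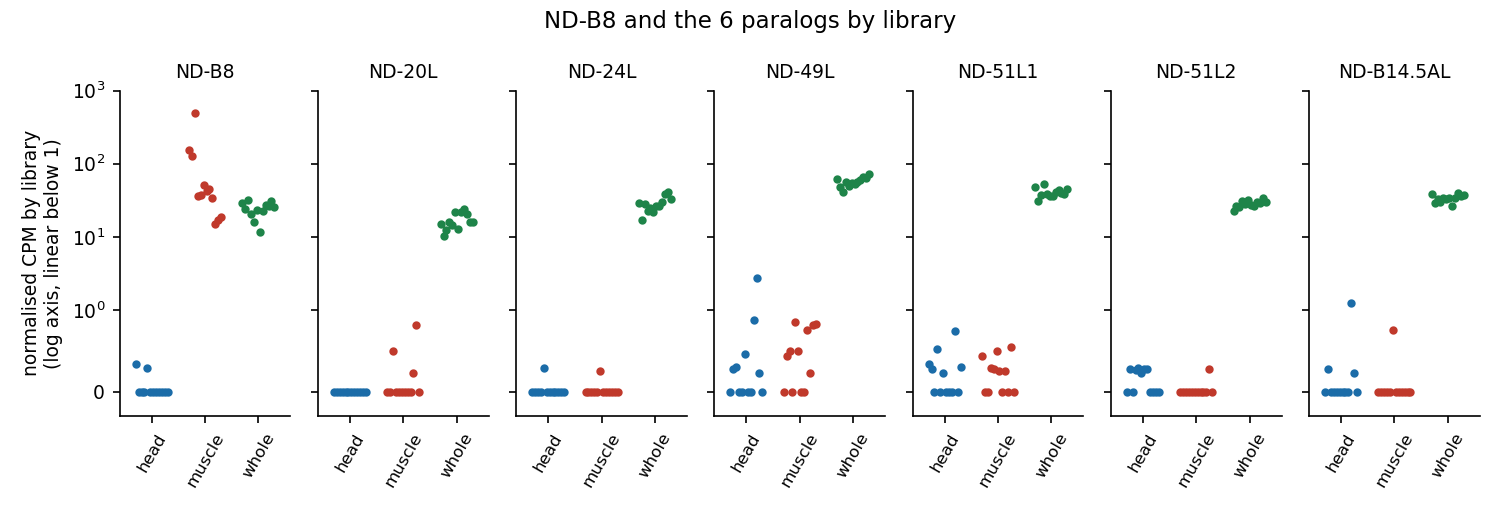
Scaled CPM of ND-B8 and the 6 paralogs in each head, muscle and whole-fly library, on an axis that is logarithmic above 1 CPM and linear below it. ND-B8 is read in every muscle and whole-fly library and is near 0 in heads, while the paralogs are near 0 in heads and muscles.

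Other genes of the pathway were counted in lists. Of 11 complex I assembly factor genes, 2 fell in heads from 3 to 45 d, CG11722 (log2 -0.59) and Nubpl (-0.29), with a median of -0.12, where 18.2% of all head genes fell and 17.5% rose. In muscles, where 11.1% of all genes fell and 8.21% rose, 2 fell, CG11722 (log2 -1.57) and sicily (-0.59), and l(2)37Bb rose (0.57), with a median of -0.47. When replicate 3 of 3 d was left out 3 fell and 2 rose, with a median of -0.09, and CG11722 had -0.84. Complex I genes of the mitochondrial genome split in heads, where mt:ND4L (log2 -1.17) and mt:ND2 (-0.79) fell and mt:ND3 rose (0.37) of 7 tested. In muscles 6 of 7 fell with a median of -2.58, the furthest mt:ND4 (log2 -3.04), and mt:ND2 had -2.01 (adjusted p = 0.0507, edgeR). Without that library 7 of 7 fell (median -2.23). Nuclear genes of complexes II to V fell in both tissues, 35 of 35 tested in heads (median log2 -0.61) and 34 of 35 in muscles (-2.48, and again 34 with a median of -2.03 without that library). Of 6 regulators of mitochondrial gene expression, srl, the fly homolog of the coactivator PGC-1, rose in heads (log2 0.72) and in muscles (1.38). In heads mtSSB, the mitochondrial single-stranded DNA-binding protein, rose as well (0.97). In muscles Ets97D, a subunit of the NRF-2 homolog, rose (0.88) and TFAM, which packages mitochondrial DNA, fell (-0.64). Without that library srl had 1.02, Ets97D 0.83 and TFAM -0.58, and ewg, the homolog of NRF-1, fell as well (-0.69).

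In whole flies few complex I genes differed between the Gcn5 genotypes past the threshold, and by small amounts. In the mutant 2 of 39 tested members were lower than in WT. None was higher by edgeR or DESeq2, 10 members had an unadjusted p under 0.05 in either direction, and the median log2 change was -0.10 against 0.01 over all genes, of which 8.82% were lower, a larger share than among the members. ND-24 (X chromosome, 17632089 to 17633509) stood at 172, 182, 168 and 176 CPM in WT and at 120, 158, 133 and 152 CPM in the mutant (log2 -0.30, SE 0.09, adjusted p = 0.0133, edgeR). The groups do not overlap. In the authors' deposited table the same 2 of 39 members were lower past the threshold, where 6.75% of its genes were, with a log2 change of -0.30 for ND-24 (SE 0.09, adjusted p = 0.0142).

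Replicates 1 and 3 of the mutant held lower complex I levels than its replicates 2 and 4. Of the 33 subunit genes with counts, 29 had both of the former under both of the latter, and replicate 3 was the lowest library of the group for 21 genes and replicate 1 for 11. The summed level of the subunit genes ran from 4030 to 5174 CPM in the mutant, against 4868 to 5419 CPM in WT and 5243 to 5439 CPM in the transgene group. The count of members lower in the mutant was 0, 7, 1 and 5 without mutant replicates 1, 2, 3 and 4, and 1 and 5 without WT replicates 1 and 4. The most abundant members show the same split. ND-51 stood at 434, 523, 472 and 406 CPM in WT and at 360, 450, 307 and 426 CPM in the mutant (log2 -0.25, adjusted p = 0.0668, edgeR). ND-SGDH stood at 180, 173, 195 and 168 and at 145, 172, 129 and 158 CPM (log2 -0.24, adjusted p = 0.0604, edgeR). ND-39, the homolog of NDUFA9, stood at 419, 449, 428 and 404 and at 378, 420, 349 and 415 CPM (log2 -0.12, adjusted p = 0.328, edgeR).

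With the transgene 6 of 39 members were higher than in the mutant and all 39 values were above 0, with a median log2 change of 0.21, where 5.27% of all genes were higher. The comparison shares the mutant libraries with the one before, so the low mutant replicates enter both. ND-24 stood at 176, 195, 183 and 167 CPM in the transgene group, above every mutant library (log2 0.35, SE 0.08, adjusted p = 0.00549, edgeR). ND-51 stood at 518, 494, 488 and 475 CPM there (log2 0.35, SE 0.09, adjusted p = 0.0101, edgeR). ND-MLRQ stood at 306, 267, 338 and 306 CPM, against 198, 273, 184 and 262 CPM in the mutant and 265, 293, 268 and 265 CPM in WT (log2 against the mutant 0.40, SE 0.10, adjusted p = 0.00557, edgeR). Its groups overlap, while those of ND-51 do not. ND-23 (log2 0.35), ND-20 (0.32) and ND-24L were the others called. The authors' deposited table had 5 members higher, and 4.17% of its genes. The count was 2 without mutant replicate 3 and at most 9 when any other library was left out.

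Against WT, 3 of 39 members were higher in the transgene group, where 7.6% of all genes were higher, and none was lower by edgeR or DESeq2, with 8 members at an unadjusted p under 0.05 in either direction. The median log2 change was 0.10. ND-13B, the homolog of NDUFA5, stood at 71.2, 65.2, 56.7 and 79.6 CPM in WT, at 71.7, 90.6, 76.2 and 85.0 CPM in the mutant and at 81.7, 78.0, 114 and 82.3 CPM in the transgene group (log2 against WT 0.38, SE 0.12, adjusted p = 0.0257, edgeR). A transgene library lies within the WT range, and replicate 3 lies alone at the top. ND-B14.7 stood at 108, 116, 104 and 97.6 CPM in WT, 101, 104, 105 and 117 CPM in the mutant and 133, 111, 135 and 126 CPM in the transgene group (log2 against WT 0.24, adjusted p = 0.0571, edgeR). The authors' deposited table had 2 members higher, and 6.07% of its genes. The count was 0 without transgene replicate 3, 1 without WT replicate 3 and 5 under library-size scaling alone.

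Both other members past the threshold against WT were paralogs. ND-24L stood at 29.0, 16.9, 28.3 and 22.9 CPM in WT, at 24.9, 21.7, 26.5 and 26.5 CPM in the mutant and at 29.7, 38.3, 41.4 and 33.3 CPM in the transgene group. All transgene libraries lie above all others (log2 0.55, SE 0.16, adjusted p = 0.0165 against WT, and 0.52, SE 0.16, adjusted p = 0.0399 against the mutant, edgeR). ND-49L stood at 61.6, 48.3, 40.7 and 55.8 CPM in WT, 49.9, 54.7, 52.1 and 56.0 CPM in the mutant and 59.9, 65.6, 64.1 and 73.1 CPM in the transgene group (log2 0.34, SE 0.12, adjusted p = 0.0435 against WT, edgeR). The 15 testis markers summed to 2592 to 3466 CPM in WT, 3280 to 3549 CPM in the mutant and 3464 to 3935 CPM in the transgene group, and their part in these differences was not tested.

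The other 4 paralogs passed in no genotype comparison. ND-51L1 stood at 47.9, 31.0, 37.9 and 52.8 CPM in WT, 38.9, 36.3, 36.4 and 41.0 CPM in the mutant and 43.2, 40.1, 38.8 and 45.8 CPM in the transgene group. ND-51L2 stood at 22.5, 26.3, 25.6 and 30.8, then 28.6, 32.1, 27.5 and 26.9, then 30.1, 29.1, 33.9 and 29.7 CPM in the same order. The genotypes of both genes overlap. ND-20L stood at 14.9, 10.3, 12.3 and 16.3, then 14.6, 21.7, 12.8 and 21.8, then 24.2, 20.9, 16.2 and 16.1 CPM, and ND-B14.5AL at 39.0, 29.1, 33.4 and 29.9, then 34.0, 33.0, 34.4 and 26.9, then 34.5, 40.4, 36.2 and 37.7 CPM. In both, WT and transgene libraries overlap.

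**Figure D5:**
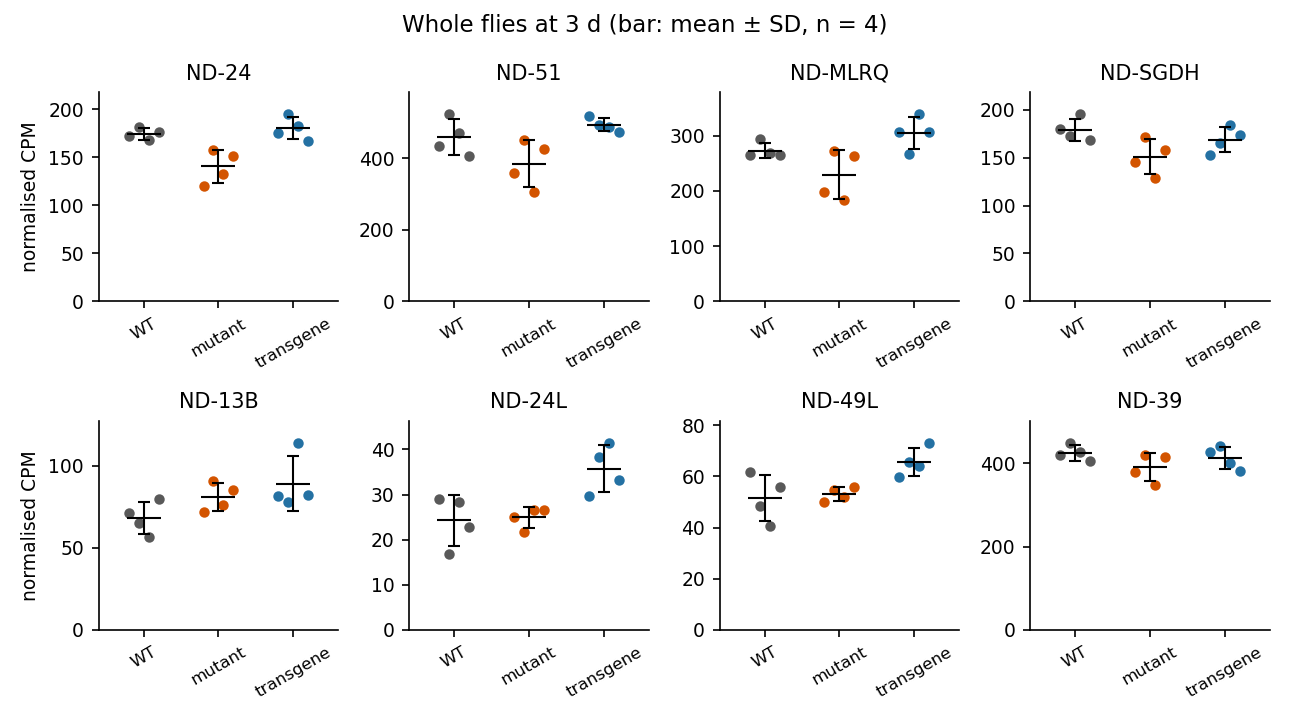
Scaled CPM of 8 complex I genes in the 4 whole-fly libraries of each genotype (WT, mutant, transgene group), with points for libraries and bars for mean ± SD (n = 4). ND-24, ND-51, ND-MLRQ and ND-SGDH have their lowest libraries in the mutant, and all transgene libraries of ND-24L, from 29.7 to 41.4 CPM, lie above those of WT and the mutant.

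Of the other lists in whole flies, 12 of 35 nuclear genes of complexes II to V were lower in the mutant than in WT (median log2 -0.21), and 7 of 35 were higher with the transgene than in the mutant. Over all genes 8.82% were lower and 6.37% higher in the mutant than in WT, and 5.27% higher and 4.11% lower with the transgene than in the mutant. Of 11 assembly factor genes 0 passed between mutant and WT by edgeR, with 3 at an unadjusted p under 0.05. Of 6 complex I genes of the mitochondrial genome 4 were higher in the mutant, mt:ND3 (log2 1.27), mt:ND4 (0.49), mt:ND1 (0.33) and mt:ND5 (0.27), and 2 were lower with the transgene than in the mutant. Among the regulators ewg was higher in the mutant (log2 0.46). Tissue markers differed too: of 9 gut enzymes 8 were lower and 1 higher in the mutant, with sums of 6357 to 8002 CPM in WT, 1891 to 3386 CPM in the mutant and 2350 to 3823 CPM in the transgene group. All 6 accessory gland genes were higher, with sums of 2255 to 2422, 4576 to 5667 and 2972 to 3394 CPM. The 11 muscle markers summed to 15153 to 18251 CPM in WT, 13652 to 15674 CPM in the mutant and 14177 to 14843 CPM in the transgene group. The transgene range lies below that of WT, and the mutant range overlaps with WT. The part of these markers in the genotype values of complex I genes was not tested.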

How the data were processed

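Poly-A RNA was read from single ends in heads and muscles and from paired ends in whole flies, per the labels. The authors deposited a whole-number count per gene for each library. In whole flies each is a count of read pairs over the exons of a gene on FlyBase r6.36, made with no strand option, per the file headers. Named in the submitters' processing notes are DESeq2, featureCounts 2.0.1, STAR 2.7.6a and Trim Galore 0.6.6. Which tool, build and strand option gave the head and muscle counts is not given in the sources used here. Their tables end with tallies, which were left out. Of all tallied reads, 3.78 to 4.35% in heads and 1.22 to 2.79% in muscles had no feature, ambiguous reads made up 3.52 to 3.89% in heads and 2.49 to 3.78% in muscles, and multiply aligned reads 4.99 to 6.92% and 5.39 to 36.6%. Reads of overlapping or antisense genes may be shared or lost. The authors also deposited a table of log2 fold changes, standard errors, a test score, mean signal, p-values and adjusted p-values per gene for each whole-fly comparison.

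Gene IDs were matched to FlyBase symbols for 17358 genes (99.2%) and 17547 genes (99.6%). Heads, muscles, both tissues together and whole flies were fitted apart, with a mean per group, filterByExpr (count 10, total 15), TMM scaling and edgeR's quasi-likelihood F-test (edgeR 4.0.16, limma 3.58.1, R 4.3.3), over 9035, 8866, 9538 and 10723 genes. Unless named otherwise, adjusted p-values come from edgeR, with the Benjamini-Hochberg correction over every gene tested and a threshold of 0.05. The SE is the size of the log2 change divided by the square root of F. CPM divide a count by the scaled library size. The scripts were tested on simulated data. Alternatives were DESeq2 1.42.0, other scalings, the mitochondrial genome left out, no filter, only the compared groups, a replicate block and each library left out. Where no share of all genes stands beside a count under an alternative or at an unadjusted p, none is given here. Leaving out replicate 3 of muscle at 3 d and at 45 d together was chosen after seeing the data.

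The genes and the lists (assembly factors, mitochondrial genome, complexes II to V, regulators, tissue markers) were chosen with earlier results of these data known. Values in every library are given for up to 4 members with the largest rise and 4 with the largest fall of a comparison among those past the threshold, for the member with the highest level per kilobase in each module, for the paralogs and for members against the common direction. ND-30, ND-75 and the genes with exonic overlap were named after their values were seen. Single values of 1 member of the Q module are not reported here, though it is counted among the members.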

Additional observations from a re-analysis of the deposited data

Results flagged for a closer look

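The fall with age differed between tissues for 24 members, whose change from 3 to 45 d was lower in muscle than in head by the interaction test of edgeR. The 4 largest differences on the log2 scale, muscle minus head, were -2.21 for ND-MLRQ, -2.09 for ND-19, -2.01 for ND-B15 and -1.93 for ND-15. Muscle replicate 3 of 3 d enters all of them, and without it ND-19 and ND-MLRQ had -1.71 each, ND-B15 -1.51 and ND-15 -1.43.

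A library stood far from the other 3 of its group in 2 of the 120 groups of 4 examined, and chance flags about 1 in 20 such groups. ND-MLRQ had 293 CPM in replicate 2 of WT whole flies, against 265 to 268 CPM in the others. ND-13B had 114 CPM in replicate 3 of the transgene group, against 78.0 to 82.3 CPM.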

How the results depend on the processing

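Of the counts of members past the threshold, 356 stayed within 1.5 times their value under an alternative and 32 did not. Both directions of every comparison enter this tally, and a count of 0 that stayed at 0 is among the 356. Under library-size scaling alone, 16 members were lower in heads at 15 d than at 3 d, 0 from 15 to 45 d and 1 in the mutant against WT, and 5 were higher in the transgene group than in WT. Without the mitochondrial genome 2, and with no filter 2, were lower in heads from 15 to 45 d, and with no filter 6 were lower in the mutant. With only the compared groups 12 were lower in muscle from 3 to 15 d, 12 from 15 to 45 d, 1 in the mutant against WT, and 11 and 2 in the tissue difference from 3 and from 15 to 45 d. DESeq2 called 2 lower in muscle from 15 to 45 d. Without replicate 3 of muscle at 3 and 45 d, 15 were lower from 15 to 45 d and 2 in the tissue difference over those ages. Leaving out each library in turn gave 8 to 24 lower in heads from 3 to 15 d, 0 to 7 from 15 to 45 d, 0 to 7 lower in the mutant against WT, 2 to 9 higher with the transgene against the mutant and 0 to 3 against WT. Of values of single members, 1445 kept their side of the threshold, 53 lost it and 29 gained it. The 45 d change of ND-51 in muscle reversed to 0.18 under library-size scaling alone. The replicate block moved no count beyond 1.5 times. No clear pairing of libraries by replicate number was seen, though this check cannot exclude it. The median correlation of deviations was 0.02 in heads, and 2 of 18 pairs there passed 0.1. In the joint fit of heads and muscles the median was 0.01, from -0.27 to 0.22, and 10 of 84 pairs passed 0.1. In muscles 0 of 18 pairs passed it, and in whole flies 0 of 12. The cause of these shifts was not tested. Depth limits ND-B8 in heads and the paralogs in heads and muscles.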
